A study of Bos taurus with 20 samples.

Results

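COL2A1, COL11A1, ACAN and COMP, 4 genes of cartilage matrix, were followed in longissimus dorsi, the long muscle of the back, of cattle from 60 days of gestation to 30 months after birth. The genes were taken as the array rows annotated with one of these symbols, and where a gene had several rows the one with the highest mean over all columns was used. They make up 4 of 11329 genes with a symbol on the array and 5 of its 21475 rows, since ACAN has 2 rows. Their gene identifiers in the annotation are 407142 for COL2A1, 287013 for COL11A1, 280985 for ACAN and 281088 for COMP.

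Total RNA from cattle of a Piedmontese by Hereford cross and of a Wagyu by Hereford cross was measured on 2-colour Agilent arrays at 60, 135, 195 and 280 days of gestation and at 3, 7, 12, 20, 25 and 30 months after birth. The deposited values form 20 columns, 1 for each cross and age, a fetal column standing for 3 animals and a postnatal column for 4, 72 samples in all. The crosses share the Hereford side of their parentage, and the labels used here give no genotype, sex or treatment of the animals. Levels are in log2 units as the authors deposited them. With 1 column for each cross and age, the spread behind every test is that between the crosses after their mean difference is removed, and differences are given in log2 units, not as folds.

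Collagen II, the product of COL2A1, forms the main fibrils of cartilage, and the collagen XI chain encoded by COL11A1 is built into those fibrils and helps to set their thickness. Aggrecan, encoded by ACAN, is a large proteoglycan whose chondroitin sulfate chains hold water between the fibrils. COMP, a member of the thrombospondin family, binds collagen fibrils and is made in tendon as well as in cartilage. Mature skeletal muscle fibres are not a known source of these proteins. In a fetus the proteins are known from the cartilage models of vertebrae and ribs, though not from there alone.

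The columns carried muscle RNA throughout. The mean level of 13 measured skeletal muscle genes ran from 15.09 to 18.55 in the 8 fetal columns and from 16.72 to 17.30 in the 12 postnatal ones. ACTA1, the actin of skeletal muscle fibres, was at 16.52 or higher in each of the 20 columns. The level below which 10% of rows lay (the 10th percentile) was between 3.19 and 4.11 in every column and serves below as a mark of the low end of the scale. The RNA came from whole muscle pieces, so fewer cells of a type and less RNA per cell cannot be told apart.

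COL2A1 fell from one of the high levels of the table to the low end of it within gestation. In the Piedmontese cross it stood at 16.70, 11.80, 8.82 and 4.23 at 60, 135, 195 and 280 days. In the Wagyu cross the same ages gave 15.81, 13.22, 8.82 and 4.76. At 60, 135 and 195 days the crosses lay closer to each other than to their own level at the next age. After birth the 12 columns ran from 2.78 to 4.85 with a median of 4.02, and 3 of them were under the 10th percentile of their column. The change from 60 to 280 days was −11.76 ± 0.42 (SE, limma, adjusted p = 5.2e-13), and only 4 of 21475 rows fell further.

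COL11A1 followed the same course with a late, steep part. Its Piedmontese levels at the fetal ages were 15.79, 12.42, 10.19 and 4.46. Its Wagyu levels were 16.09, 14.14, 10.61 and 5.39. The crosses did not overlap between neighbouring fetal ages. The 12 postnatal columns lay between 3.29 and 6.10 with a median of 5.01, and 2 were under the 10th percentile. From 60 to 280 days the gene fell by 11.01 ± 0.65 (adjusted p = 1.76e-10), with 8 rows lower.

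ACAN reached its late level earlier than the collagens, from a lower start. The Piedmontese columns gave 12.74, 8.50, 5.73 and 4.95 through the fetal ages. The Wagyu columns gave 11.88, 8.97, 5.37 and 5.37, so the crosses overlapped from 195 to 280 days but not between the earlier ages. After birth ACAN kept within 4.02 and 4.95, with a median of 4.47 and no column under the 10th percentile. The fetal change was −7.15 ± 0.28 (adjusted p = 1.57e-12), and 138 rows fell further. The other ACAN row was dimmer, at 5.69 and 6.05 in the 60-day columns and from 3.05 to 3.70 after birth, where 8 of 12 columns were under the 10th percentile. It fell by 1.75 ± 0.21 (adjusted p = 1.4e-06), and the mean of both rows fell by 4.45 (adjusted p = 1.77e-11). The size of the ACAN change thus depends on the row, its direction does not.

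COMP did not follow the other 3 genes. In the Piedmontese cross its fetal levels were 7.40, 7.41, 3.09 and 4.08. In the Wagyu cross they were 6.59, 8.59, 3.28 and 5.51. Both crosses were at their lowest at 195 days, under the 10th percentile of their columns, and at their next lowest fetal level at 280 days. After birth the gene was at 6.37, 6.75, 3.82, 7.07, 7.87 and 7.99 in the Piedmontese cross from 3 to 30 months. The Wagyu cross gave 4.42, 7.15, 4.25, 5.40, 8.08 and 6.09. Both crosses thus dipped again at 12 months, and the 25-month columns stood close to those of 135 days. The fetal change from first to last age was −2.20 ± 0.67 (adjusted p = 0.00911), and 3607 rows fell further. That call was lost without the Piedmontese column of 60 days (−1.88, adjusted p = 0.0593) or of 280 days (−1.27, adjusted p = 0.199). It was also lost with columns centred on their median (−0.97, adjusted p = 0.233) and after quantile normalisation (−1.31, adjusted p = 0.147).

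**Figure D1:**
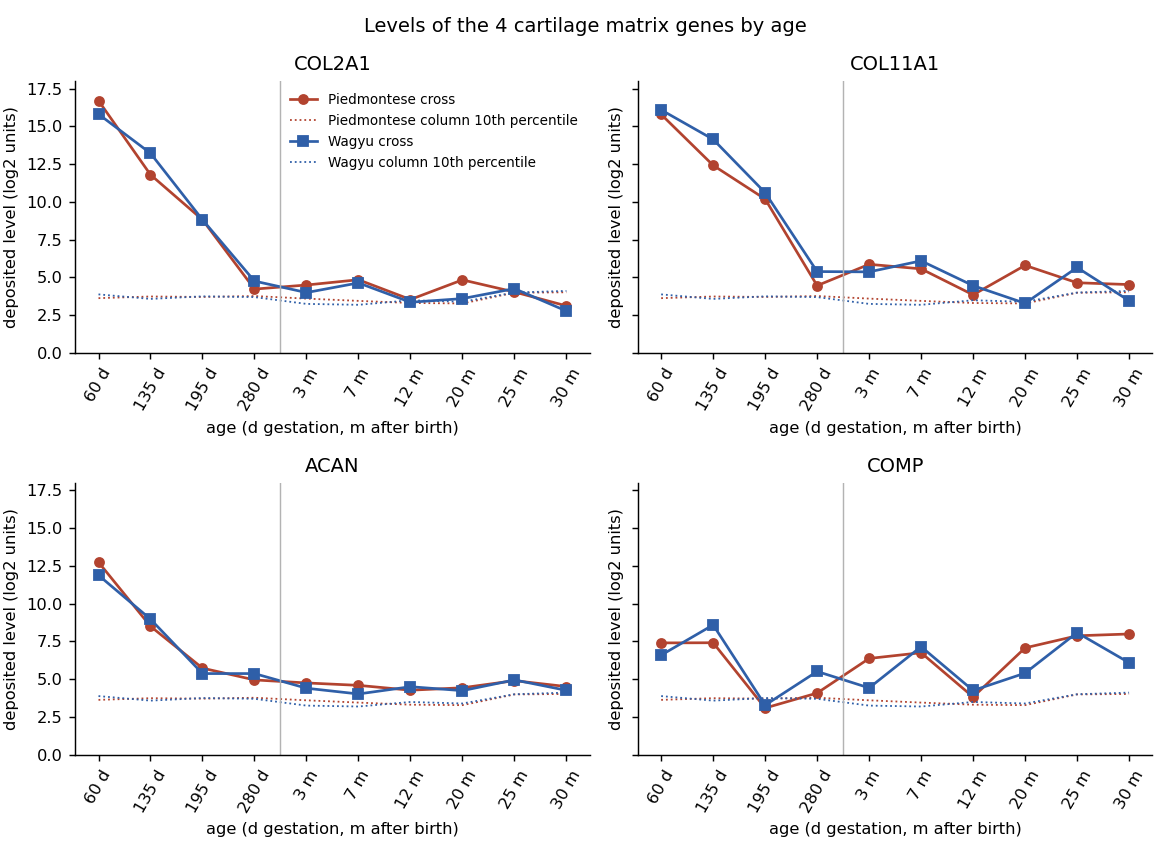
Deposited level in log2 units of each gene by age, with 1 point per cross and age, circles for the Piedmontese and squares for the Wagyu cross, and dotted lines for the 10th percentile of each column; the vertical line marks birth. COL2A1, COL11A1 and ACAN start at 11.88 or higher at 60 days and lie at 6.10 or lower from 280 days on, while COMP is lowest at 195 days and dips again at 12 months.

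All 4 genes differed between the 10 ages in the F test over ages, as did 87.4% of all rows. Its adjusted p was 2.18e-13 for COL2A1, 7.33e-11 for COL11A1, 1.03e-12 for ACAN and 2.64e-05 for COMP. From 60 to 280 days 4 of 4 passed, all lower, where 61% of rows passed and 42.4% were lower. Such shares mean that passing the test sets the genes little apart, and it is the size of the fall in COL2A1, COL11A1 and ACAN that lies far out in the table. The median row moved by −0.34 over the same ages as deposited and by 0.89 with each column centred on its median. Under that centring the changes were −10.53 for COL2A1, −9.78 for COL11A1 and −5.92 for ACAN, with adjusted p of 3.87e-10, 5.13e-08 and 2.52e-10.

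The steps between neighbouring ages placed these changes in time, and 10 of 36 gene-by-step tests passed, 8 of them in the fetal steps of COL2A1, COL11A1 and ACAN. COL2A1 fell at each fetal step, by 3.75 ± 0.42, 3.69 ± 0.42 and 4.33 ± 0.42 (adjusted p = 9.89e-06, 2.29e-05 and 2.19e-07). COL11A1 fell by 2.66 ± 0.65, 2.88 ± 0.65 and 5.47 ± 0.65 (adjusted p = 0.00813, 0.00687 and 2.18e-06). ACAN fell by 3.57 ± 0.28 and 3.19 ± 0.28 up to 195 days (adjusted p = 3.01e-07 and 1.6e-06), and its last fetal step of −0.39 did not pass (adjusted p = 0.29). By 195 days ACAN had made 94.6% of its fall on the log2 scale, COL2A1 63.2% and COL11A1 50.3%. ACAN had started lower, at 12.74 and 11.88 against 16.70 and 15.81 for COL2A1. At 195 days it was 2.02 and 1.61 above the 10th percentile in the Piedmontese and Wagyu columns, and COL2A1 was 5.12 and 5.07 above. These shares thus depend on the start and on the low end of the scale, not on the rate of fall alone. COL11A1's 60 to 135 day step lost its call without the Piedmontese column of 135 days (−1.78, adjusted p = 0.123). Its next step lost it without the Piedmontese column of 195 days (−2.73, adjusted p = 0.0703) or the Wagyu column of 135 days (−2.01, adjusted p = 0.0783). The ACAN step from 135 to 195 days was −0.55 in the other ACAN row and did not pass there (adjusted p = 0.0915). The shares of all rows that passed were 19.5%, 15% and 47.8% for the fetal steps in order.

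COMP moved down from 135 to 195 days, as COL2A1, COL11A1 and ACAN did, and again from 7 to 12 months. It fell by 4.81 ± 0.67 from 135 to 195 days (adjusted p = 0.000165), which only 12 rows exceeded, and this call held without any 1 of the 4 columns involved. Over these ages all 4 measured cartilage collagens also fell, where 9.48% of all rows were called lower. So did 4 of 6 fat genes, their mean level going from 10.27 to 5.80 in the Piedmontese and from 8.89 to 7.07 in the Wagyu cross. Also lower were 5 of 13 tendon genes, 2 of the 4 other thrombospondins and 4 of 8 genes of connective tissue progenitors. Of 18 collagen processing genes 6 fell and 1 rose, and 8 of 13 skeletal muscle genes rose, where 5.47% of all rows were called higher. Other lists moved less. Of 13 other cartilage matrix genes 1 fell and 1 rose (median −0.18), and of 7 soft tissue collagens and partners 1 fell (median −0.05). In the lists of lecticans and of bone 1 of 6 and 2 of 10 fell. The preceding change of COMP of 1.01 (adjusted p = 0.342) and the following one of 1.61 (adjusted p = 0.0598) did not pass, though the latter passed with columns centred (2.35, adjusted p = 0.0117) and without the Piedmontese column of 280 days (2.54, adjusted p = 0.0195). From 7 to 12 months COMP fell by 2.92 ± 0.67 (adjusted p = 0.0378), by 2.93 in the Piedmontese and by 2.90 in the Wagyu cross, and 1 row of 21475 fell further. This was the only one of 20 postnatal gene-by-step tests that passed. Its adjusted p lay between 0.0991 and 0.362 when any of the 4 columns was left out, and was 0.15 with a trended robust prior. COL2A1 and COL11A1 changed by −1.29 and −1.68 over those months without passing (adjusted p = 0.15 and 0.247), and ACAN by 0.08. Connective tissue and fat genes were lower at 12 months as well. The mean of 13 tendon genes went from 10.04 to 9.01 in the Piedmontese and from 10.05 to 9.43 in the Wagyu cross, that of 7 soft tissue collagens from 12.56 to 11.03 and from 12.29 to 11.66, and that of 6 fat genes from 8.89 to 7.55 and from 9.13 to 8.05. All 4 other thrombospondins had changes below 0, with a median of −1.08, and none passed. In each of those lists 1 gene passed, lower: BGN among the tendon genes (−1.22), COL1A2 among the collagens (−1.76) and CIDEC among the fat genes (−1.82). The part of these tissues in the COMP dip was not tested. Over those months the 4 cartilage collagens had a median change of 0.22 and none was called. The 13 other cartilage matrix genes had a median of −0.20, with 1 called lower. COMP then changed by 2.20 from 12 to 20 months and by 1.74 from 20 to 25 months (adjusted p = 0.0947 and 0.12). The postnatal steps passed in 1.27%, 1.66%, 2.29%, 8.97% and 2.81% of rows, in order of age. The columns of 3 to 20 months were measured on other slides than those of 25 and 30 months, so the step from 20 to 25 months cannot be told apart from the change of slides.

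**Figure D2:**
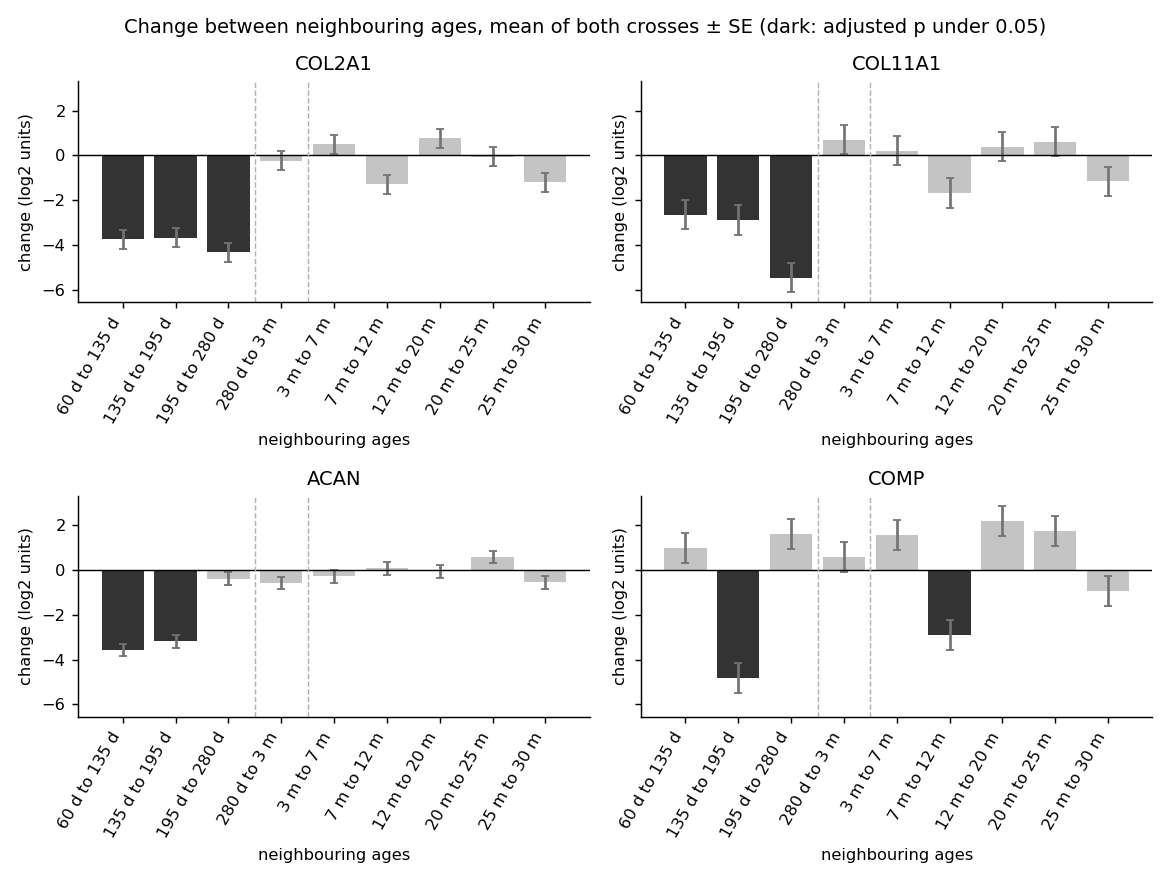
Change between neighbouring ages in log2 units for each gene, as bars of the mean of both crosses with the SE of the fit; dark bars have an adjusted p under 0.05 and the dashed lines enclose the step across birth. COL2A1 and COL11A1 fall in 3 fetal steps and ACAN in the earlier 2, whereas the dark bars of COMP are at 135 to 195 days and at 7 to 12 months.

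Across birth, from 280 days to 3 months, none of the 4 genes passed, against 28.6% of rows. The limma differences were −0.24 ± 0.42 for COL2A1, 0.69 ± 0.65 for COL11A1, −0.58 ± 0.28 for ACAN and 0.60 ± 0.67 for COMP (adjusted p = 0.691, 0.442, 0.133 and 0.523). The ACAN change passed with columns centred on their median (−0.72, adjusted p = 0.036) and in the other ACAN row (−0.99, adjusted p = 0.00271). Fetal and postnatal columns shared none of the 9 slides, so birth and slides cannot be told apart.

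Over the postnatal months, from 3 to 30, 21.9% of rows passed, 3.49% lower and 18.4% higher. COL2A1 fell by 1.30 ± 0.42 (adjusted p = 0.0386) and was the 1 gene of the 4 to pass. Its columns were 4.50 and 4.00 at 3 months and 3.12 and 2.78 at 30 months, both of the latter under the 10th percentile. Leaving out the Piedmontese or Wagyu column of 3 months, or that of 30 months, ended the call, with changes of −1.09, −1.50, −1.42 and −1.17 (adjusted p = 0.168, 0.134, 0.107 and 0.215). COL11A1 changed by −1.63 ± 0.65, ACAN by −0.19 and COMP by 1.64 ± 0.67 (adjusted p = 0.082, 0.655 and 0.0881). COMP passed without the Piedmontese column of 3 months (2.59, adjusted p = 0.0339). After quantile normalisation the COL2A1 change was −2.10 (adjusted p = 0.0193). No slide held samples of both 3 and 30 months, and a slide effect cannot be told apart from age in these changes.

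The mean of the 6 postnatal ages was lower than that of the 4 fetal ages by 6.56 ± 0.19 for COL2A1, 6.25 ± 0.30 for COL11A1 and 3.45 ± 0.13 for ACAN. The adjusted p were 1.04e-14, 3.86e-12 and 1.89e-13. COMP differed by 0.53 ± 0.31 (adjusted p = 0.132). Its difference was 1.15 in the Piedmontese and −0.09 in the Wagyu cross, so the mean does not stand for a rise in both. Thus 3 of 4 were called, all lower, where 73.5% of rows were called and 51.3% were lower. The COMP difference passed with columns centred (1.15, adjusted p = 0.00618), after quantile normalisation (1.15, adjusted p = 0.0089) and without the 135-day columns (1.28, adjusted p = 0.00182), and it was −0.32 without the 195-day columns. It also passed, at 0.68 to 0.98 (adjusted p = 0.0125 to 0.0474), without both columns of 60 days, 3 months or 12 months and without the Wagyu column of 135 days, 280 days, 3 months or 30 months.

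Other collagens of cartilage fell with COL2A1 and COL11A1. All 4 of the 6 listed genes that were measured were lower at 280 than at 60 days, where 42.4% of all rows were lower. Under either other scaling 3 of the 4 were called lower. Their median change as deposited was −7.54, against −0.34 over all rows. COL9A2 and COL9A3 encode chains of collagen IX, which sits on the surface of collagen II fibrils. COL9A2 went from 13.03 and 11.28 in the Piedmontese and Wagyu columns of 60 days to 3.74 and 3.88 at 280 days, a change of −8.34 ± 0.36 (adjusted p = 3.84e-12). COL9A3 changed by −7.59 ± 0.43 and COL27A1, a fibrillar collagen of cartilage, by −7.49 ± 0.26 (adjusted p = 9e-11 and 2.91e-13). COL10A1, the collagen of hypertrophic chondrocytes, which enlarge before bone replaces cartilage, changed by −0.89 ± 0.26 (adjusted p = 0.00626) but by 0.24 after quantile normalisation and 0.34 with median centring, where it did not pass. By 195 days COL9A2 had made 84.1% of its fall, COL9A3 70.5% and COL27A1 39.7%, so the cartilage collagens completed different shares of their fall by that age. COL9A2 then stood at 5.14 in both crosses, with less of the scale left to fall through than COL27A1 at 11.99 and 12.37.

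Of 13 measured genes for other cartilage matrix proteins, 7 fell, 2 rose and 4 did not pass over the same ages. Their median change was −2.46, and of all rows 42.4% fell and 18.6% rose. CNMD (chondromodulin, which keeps blood vessels out of cartilage) fell by 7.60 ± 1.07, CILP2 (a cartilage intermediate layer protein) by 7.03 ± 0.64 and MIA (secreted by chondrocytes) by 5.79 ± 0.37. EPYC, a small proteoglycan of growth cartilage, fell by 3.60 ± 0.59, and OTOR changed by −3.21 ± 0.34, MATN4 by −3.04 ± 0.63 and MATN3, a matrilin that links matrix fibrils, by −2.46 ± 0.48. CHAD rose by 1.65 ± 0.30 and VIT by 1.34 ± 0.25. PRG4, the lubricin of joint surfaces, was at −0.07 (adjusted p = 0.884). CNMD had made 84.8% of its fall and EPYC 93.9% by 135 days, against 31.8% for COL2A1 and 50% for ACAN. At 135 days CNMD stood at 5.33 and 4.46 and EPYC at 5.45 and 5.04 in the Piedmontese and Wagyu columns. Both were thus near the low end of the scale, which left little further fall to be read. With columns centred on their median the split became 7 lower and 6 higher, and with quantile normalisation 7 lower and 3 higher.

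The marker genes of cartilage ended near the low end of the scale. Of 8 listed markers 4 were measured, and COL9A2 was under the 10th percentile in 10 of 12 postnatal columns, MATN3 in 7, CNMD in 4 and COL9A3 in 3. The highest postnatal level among them was 4.55, for MATN3. The markers HAPLN1, SOX9, MATN1 and COL9A1 were not analysed here. In the same 12 columns COL2A1 was under the 10th percentile in 3, COL11A1 in 2 and ACAN and COMP in none.

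Genes of chondrocyte regulation split. Of 14 measured, 5 fell and 5 rose from 60 to 280 days, against 42.4% and 18.6% of all rows, with a median of −0.11. PTH1R, the receptor through which PTHLH slows chondrocyte maturation, fell by 3.85 ± 0.25, and IHH, the hedgehog signal of maturing chondrocytes, by 1.50 ± 0.31. FGFR3, a receptor that restrains growth cartilage, rose by 1.19 ± 0.22, FOXC2 by 1.02 ± 0.22 and SOX6, a partner of SOX9 that muscle fibres also use, by 0.67 ± 0.27. The split was 3 lower and 8 higher after quantile normalisation and 1 lower and 8 higher with centring.

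Genes for the chondroitin sulfate chains carried by aggrecan were mostly lower late in gestation. Of 15 measured, 11 fell and 1 rose, against 42.4% and 18.6% of all rows, with a median of −1.87. PAPSS1, which makes the sulfate donor, fell by 5.51 ± 0.31. CHSY3 and CSGALNACT1, which build the chain, fell by 4.56 ± 0.29 and 4.01 ± 0.23, while CSGALNACT2 rose by 1.02 ± 0.31. BPNT2, at −0.73 as deposited, was called higher under centring (0.50) and quantile normalisation (0.60), and the centred split was 8 lower and 5 higher. Quantile normalisation gave 8 lower and 2 higher.

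In the family of aggrecan and the hyaluronan that anchors it, 3 of 6 measured genes fell, near the 42.4% of all rows that fell. None rose, and the median was −2.00. HAS2, a hyaluronan synthase, fell by 6.46 ± 0.32, and BCAN and NCAN, lecticans known mainly from brain, by 4.12 ± 0.44 and 3.92 ± 0.91. Under either other scaling the remaining 3 were called higher. Genes for proteases that cut these matrix proteins and for their inhibitors numbered 14. Of them 8 fell and 1 rose, against 42.4% and 18.6% of all rows, with a median of −0.74. ADAMTS4, an aggrecanase, fell by 4.53 ± 0.38, and ADAMTS5, the other main aggrecanase, changed by −0.65 ± 0.27 as deposited but by 0.58 with centring and 0.68 after quantile normalisation. The centred split was 3 lower and 8 higher, and the quantile split 6 lower and 5 higher.

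The 4 other thrombospondins fell over gestation, with a median of −4.43, although COMP moved down and up within it. THBS2 changed by −5.02 ± 0.28, THBS3 by −4.94 ± 0.30, THBS4, made in tendon and muscle, by −3.92 ± 0.46, and THBS1 by −1.51 ± 0.56 (adjusted p = 6.9e-11, 1.92e-10, 8.46e-07 and 0.0267). The THBS1 call did not hold under the other 2 scalings. Of 13 measured tendon genes, THBS4 again among them, 12 fell and none rose, where 42.4% of all rows fell and 18.6% rose. Their median was −4.01. TNC (tenascin) was at −8.40 ± 0.46, LUM (lumican) at −7.65 ± 0.43, ASPN (asporin) at −6.75 ± 0.41 and FMOD (fibromodulin, a collagen-binding proteoglycan) at −6.31 ± 0.44. From 280 days to 3 months LUM, FMOD, ASPN and PRELP rose by 2.19, 1.57, 1.43 and 1.19, and no tendon gene was called lower. Of all rows 13.8% were called higher and 14.8% lower over that step. The fall before birth was therefore not restricted to cartilage genes in these columns.

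Collagens of soft connective tissue, their processing enzymes and markers of other tissues fell in the same months. Of 7 soft tissue collagens and partners 6 fell and none rose (5 and 1 under either other scaling), among them COL12A1 by 6.87 ± 0.44 and COL1A2 by 5.39 ± 0.37. Of 18 genes that modify, trim or cross-link collagen 15 fell and 2 rose. FKBP10, a collagen chaperone, fell by 7.35 and LOXL2, a cross-linking enzyme, by 5.88, while PCOLCE2 rose by 3.47 and LOXL4 by 3.30. These shares stand against 42.4% of all rows that fell. Of 10 bone genes 6 fell and 2 rose (4 and 4 with centring, 5 and 3 after quantile normalisation), with SPP1 (osteopontin) at −10.37 and BGLAP (osteocalcin) at 1.93. Of 5 nerve and Schwann cell genes 3 fell and 2 rose, with CRABP1 at −12.51, NEFM (a neurofilament) at −9.16 and STMN2 at −5.96 against PMP22 at 1.10 and S100B at 0.93. Of 11 genes of surface epithelium 8 fell and 1 rose (7 and 3 with centring), and their mean level ran from 6.31 to 9.59 over fetal columns and from 5.98 to 6.74 after birth. KRT15 was at −11.54 and KRT5 at −9.59, against TP63 at 2.14. Of 8 genes of connective tissue progenitors all fell, POSTN (periostin) the most at −11.17. Fat genes went the other way, 4 of 6 rising, and 8 of 13 skeletal muscle genes rose while 4 fell. How far the mixture of tissues in the fetal pieces set the levels of COL2A1, COL11A1 and ACAN was not tested.

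**Figure D3:**
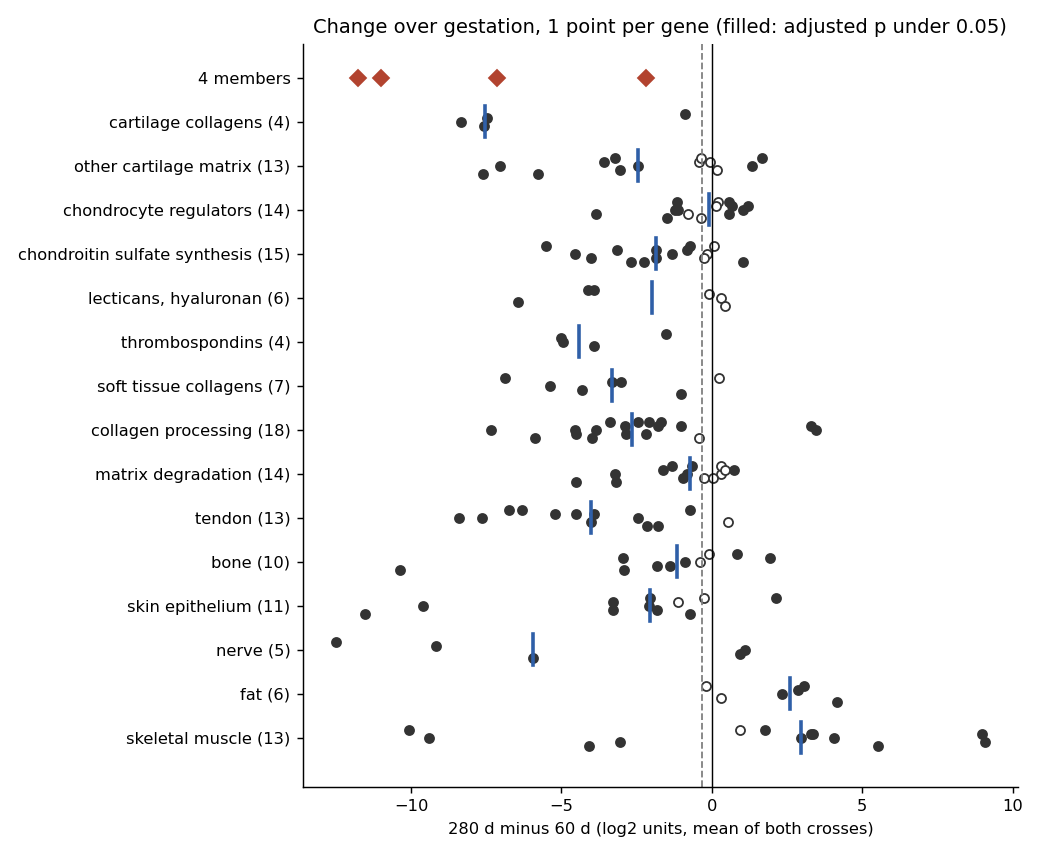
Change from 60 to 280 days in log2 units, mean of both crosses, 1 point per gene and 1 line per list with the number of measured genes in brackets; filled points have an adjusted p under 0.05, blue bars are list medians and the dashed line is the median of all rows (−0.34). COL2A1 at −11.76 and COL11A1 at −11.01 lie left of every cartilage and tendon gene. CRABP1 among the nerve genes (−12.51) lies left of both, and KRT15 of the surface epithelium (−11.54) lies left of COL11A1. Genes of connective tissue progenitors are not drawn. No gene was called higher in the lists of cartilage collagens, lecticans and hyaluronan, thrombospondins, soft tissue collagens and tendon genes.

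Over the 20 columns COL2A1 and COL11A1 were correlated at r = 0.989, COL2A1 and ACAN at 0.959 and COL11A1 and ACAN at 0.922. These columns share the fetal fall, so the values describe a common course in age. Without the 60-day columns the first pair stood at 0.986, and over the 12 postnatal columns alone at 0.844, where COL2A1 and ACAN were at 0.217. COMP was at 0.218 to 0.313 with the other 3. The genes closest to COL2A1 were COL11A1, CRABP1 (a retinoic acid binding protein, 0.989), MACROH2A2 and PAK3 (both 0.987) and SPAG5 (0.983). Closest to COL11A1 after COL2A1 were SPDL1 (0.985), COL12A1 (0.984), SCG5 and SPAG5 (both 0.983). ACAN was nearest to KREMEN2 (0.99), COL9A2 (0.987), IGF2BP1 (0.983), LDOC1 (0.981) and GNG4 (0.98). No gene came that near to COMP, for which CPXM2 (0.773), S100G (0.723), DCAF5 (0.715), SGK2 (0.714) and PLD4 (0.7) led. These lists depend on the measure. With Spearman's rho 1 of the 5 nearest genes remained for COL2A1, 1 for COL11A1, 0 for ACAN and 1 for COMP, and without the 60-day columns 2, 1, 3 and 2.

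Between the crosses none of the 4 genes passed, against 0.279% of rows. The mean Piedmontese minus Wagyu difference over the 10 ages was 0.12 ± 0.19 for COL2A1, −0.15 ± 0.29 for COL11A1, 0.14 ± 0.13 for ACAN and 0.25 ± 0.30 for COMP (limma, adjusted p = 0.964, 0.974, 0.879 and 0.941). No gene of the 16 lists passed either. The change of this difference from the fetal to the postnatal ages was 0.63, 1.16, 0.10 and 1.24 in the same order, and none passed (adjusted p = 0.982, 0.865, 1 and 0.835), against 0.0186% of rows.

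At single ages the crosses were further apart, and the sign changed from age to age. The SD of the Piedmontese minus Wagyu difference over 10 ages was 1.21 for COL11A1 and 1.25 for COMP, each larger than in 99.4% of rows, 0.74 for COL2A1 (95.9%) and 0.43 for ACAN (69.6%), where the median row had 0.359. COMP was higher in the Piedmontese cross by 1.95 at 3 months, 1.67 at 20 months and 1.90 at 30 months, and lower by 1.43 at 280 days. At 20 months COL2A1, COL11A1 and COMP were higher in the Piedmontese column by 1.23, 2.51 and 1.67, so 3 of the 4 genes were past 1 log2 unit, as were 0.424% of all genes. ACAN differed there by 0.20. At 135 days the same 3 genes were higher in the Wagyu column by more than 1 log2 unit, as were 1.81% of genes, with differences of −1.42, −1.72 and −1.19. All 13 skeletal muscle genes were also higher in the Wagyu column at 135 days, with a median difference of −2.18. Of all genes 28.4% had a difference below 0.08 at that age, and 0.5% had one below −1.86. The dyes were unequal at 135 days, with 1 Piedmontese sample in Cy3 and 2 in Cy5 and the reverse in the Wagyu cross. At 280 days the split was the other way round, and postnatal columns held 2 samples in each dye. These are differences between single columns, with no test, and the part of the muscle genes or of the dyes in them was not tested.

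The differences moved together from age to age. Over the 10 ages the cross difference of COL11A1 correlated with that of COMP at r = 0.837 and with that of COL2A1 at 0.807, and COL2A1 and COMP were at 0.768. ACAN was at 0.722 with COL2A1 and at 0.385 with COL11A1, and its 2 rows at only 0.07 with each other. Both genes of a pair come from the same arrays, so these values describe shared columns as well as shared genes. The genes whose cross differences were most like that of COL11A1 were THBS4 (0.938), FMOD (0.937), OTOR (0.93), ANGPTL5 (0.91) and FBLN7 (0.908). For COMP they were CILP2 (0.935), ANGPTL7 (0.874), FMOD (0.873), COL12A1 (0.854) and CFB (0.85). For COL2A1 they were OTOR (0.908), IL15 (0.872), KERA (0.866), RBFOX1 (0.841) and THBS4 (0.828). ACAN had a different set, with TNFRSF11B (0.924), TINF2 (0.914), SCRN3 and SOSTDC1 (both 0.898) and CFAP206 (0.897).

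Several of these are genes of tendon and of fibril-bound matrix. Their differences chose them, so the following values are a description. At 20 months FMOD was higher in the Piedmontese column by 1.19, COL12A1 by 1.22, OTOR by 1.20, CILP2 by 1.39 and THBS4 by 0.81. At 135 days they were at −0.82, −0.56, −0.74, −1.86 and −2.07. Among the 13 tendon genes 6 had a correlation over 0.5 with COL11A1 and 6 with COMP, with medians of 0.37 and 0.39. Of the 4 other thrombospondins 3 were over 0.5 with each, with medians of 0.65 and 0.57, and THBS4 is in both lists. Of 7 soft tissue collagens and partners 3 were over 0.5 with each, with medians of 0.24 and 0.23. Over all 11328 other genes the medians were −0.10 and 0.02, and 1.5% and 2.7% were over 0.5. For the 13 other cartilage matrix genes the medians were 0.18 and 0.24 and 4 were over 0.5 with each, led by OTOR and CILP2. For the 4 cartilage collagens the medians were −0.22 and −0.03, and none was over 0.5. The likeness was not particular to tendon and matrix lists. The 13 skeletal muscle genes had medians of 0.39 and 0.32, with 0 and 1 over 0.5, and 5 were over 0.5 with COL2A1. For 8 genes of connective tissue progenitors the medians were 0.25 and 0.35, with 2 over 0.5 with each. With ACAN, 8 of the 13 other cartilage matrix genes were over 0.5 (median 0.58), against 8.6% of all genes.

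**Figure D4:**
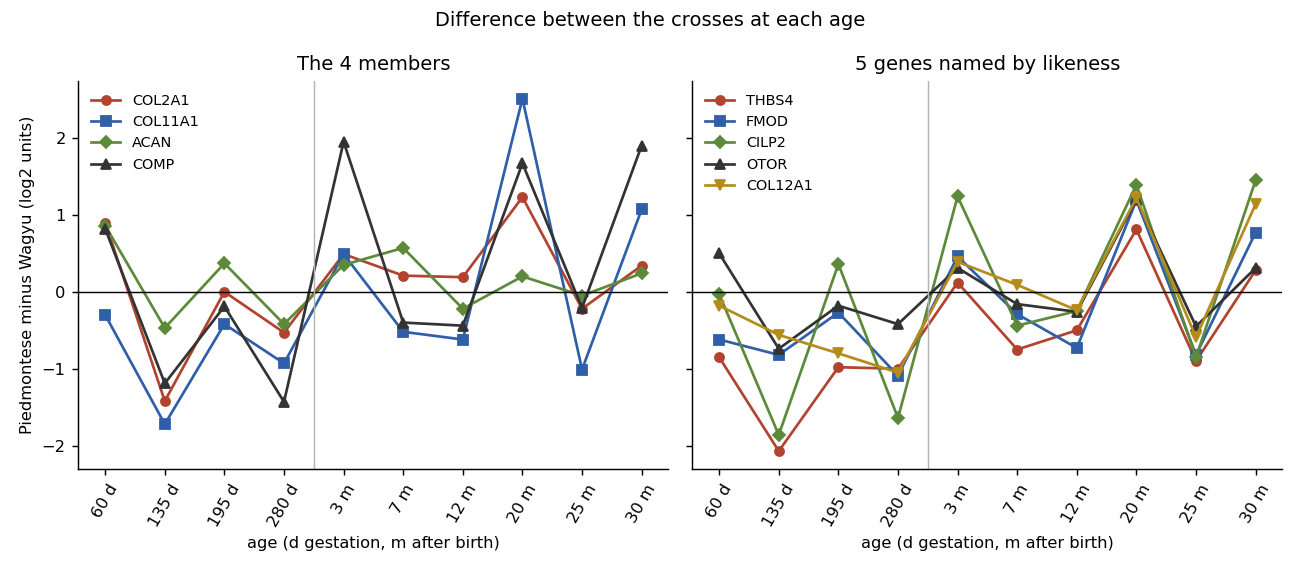
Piedmontese minus Wagyu difference in log2 units at each age, for the 4 genes on the left and for 5 genes named by the likeness of their differences on the right; each point is the difference of 2 columns and the vertical line marks birth. COL2A1, COL11A1 and COMP are below 0 at 135 days and above 1 at 20 months, and the genes on the right, chosen for that likeness, are below 0 at 135 days and above 0 at 20 months.

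At 60 days many cartilage genes, and some nerve genes, were higher in the Piedmontese column, and the 4 members less so. COL2A1 was higher in the Piedmontese column by 0.90, ACAN by 0.86 and COMP by 0.82, more than in 96.2%, 95.9% and 95.6% of genes, and COL11A1 was lower by 0.30. CNMD stood at 14.37 in the Piedmontese and 8.32 in the Wagyu column, MATN4 at 10.82 and 7.23, and EPYC at 10.17 and 7.08. COL9A3 differed by 2.02, MATN3 by 2.05 and COL9A2 by 1.75 in the same direction. Of the cartilage genes that are not among the 4, 2 of 4 collagens and 6 of 13 other matrix genes were past 1 log2 unit in this direction, as were 3.32% of all genes, and none was past it in the other. COL27A1, MIA and CILP2 were close to equal, at 0.13, 0.18 and −0.03. In the same 2 columns 8 of 13 skeletal muscle genes were higher in the Wagyu cross by more than 1 log2 unit, as were 2.22% of all genes, and their median difference was −1.13. The mean of 5 nerve and Schwann cell genes was 13.44 in the Piedmontese and 11.49 in the Wagyu column, and 2 of the 5 were past 1 log2 unit, NEFM by 5.79. For comparison the mean of the 4 cartilage collagens was 11.82 and 10.96, and that of the 13 other matrix genes 8.94 and 7.55. XIST, the RNA that coats the inactive X chromosome, was lower in the Piedmontese column by 6.72, a gene singled out after its value was seen. The dyes were unequal between the crosses here too, as at every fetal age. At 60 days 2 Piedmontese samples were in Cy3 and 1 in Cy5, with the reverse in the Wagyu cross. This comparison was chosen after the values were seen, it rests on 1 column of 3 animals each and has no test, and the part of tissue mixture, sex or dye in it was not tested.

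**Figure D5:**
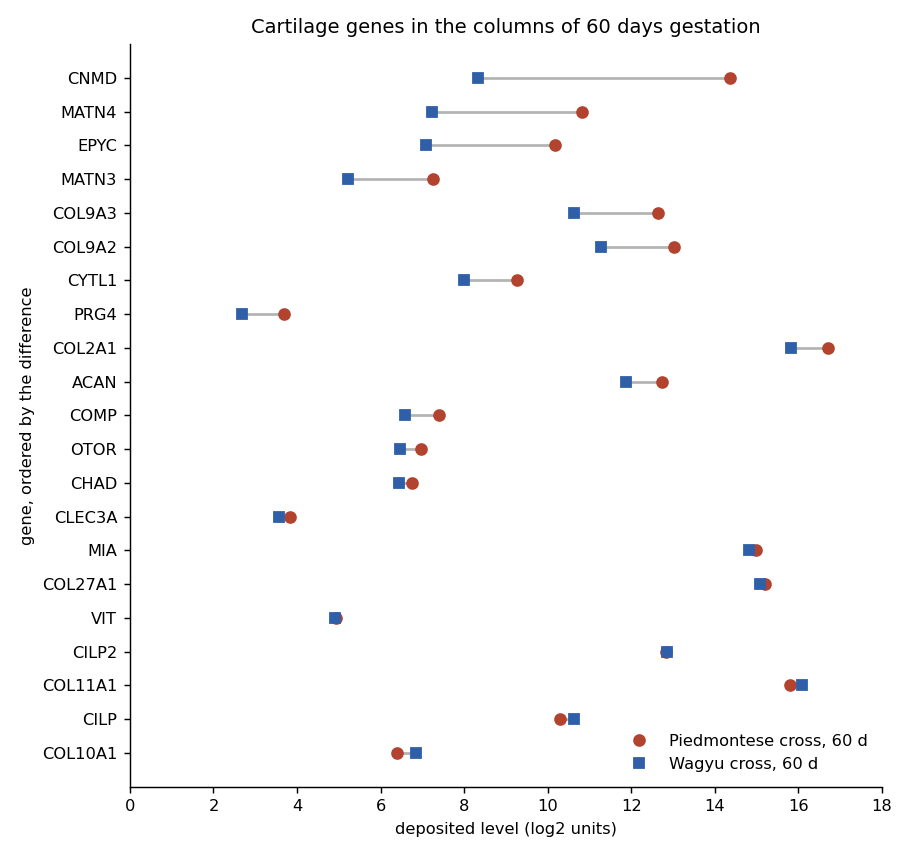
Deposited level in log2 units of 21 cartilage genes in the columns of 60 days gestation, circles for the Piedmontese and squares for the Wagyu cross, ordered by the difference. CNMD, MATN4 and EPYC differ most, by 6.05, 3.59 and 3.10, while COL11A1, CILP and COL10A1 are slightly higher in the Wagyu column.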

How the data were processed

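RNA of longissimus dorsi was hybridised to 2-colour arrays, and Agilent Feature Extraction 8.5.1.1 was the extraction software, per the submitters' processing notes. The values are log2 values as deposited by the authors; of normalisation, combination of animals and log base no account was found in the sources used here, and the log2 scale was read from the range of −0.64 to 21.75. The deposited list of dyes and scans gave 36 arrays on 9 slides, 3 for fetal samples, 4 for 3 to 20 months and 2 for 25 and 30 months. The number of arrays limits the precision.

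All 21475 rows were fitted in limma 3.58.1 (R 4.3.3; lmFit, eBayes) with age as a factor plus cross, leaving 9 residual degrees of freedom, two-sided, with Benjamini-Hochberg adjustment over all rows and a threshold of 0.05. Fetal and postnatal cross differences were compared on 10 differences with 8 degrees of freedom. Slides could not be corrected for, since columns average over them. The fits were tested on simulated data. The platform annotation gave 12276 rows 1 symbol and 9199 none. Lists held 217 genes, 160 of them measured.

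Named were the 4 genes, the 5 genes most like each by Pearson's r over 20 columns and over 10 cross differences, up to 4 genes at each end of a list's called changes with any that went against most of the list, and fixed markers. OTOR, MATN4, MATN3 and the genes at 60 days beyond these were named after their values were seen. The members and lists were chosen with earlier results of these data known. Alternatives covered scaling, dim rows, the prior, the ACAN row, left-out columns and ages, and the model of the cross difference. Promoter sequences were not analysed here.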

Additional observations from a re-analysis of the deposited data

Results flagged for a closer look

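With 1 column for each cross and age, changes between the same ages could be set side by side in the crosses, and the following had opposite signs, in 2 cases with 1 cross hardly moving: the Wagyu change was −0.02 for COL11A1 from 280 days to 3 months and 0.01 for ACAN from 195 to 280 days. None of these differences between the crosses was tested. From 280 days to 3 months the Piedmontese change minus the Wagyu change was 3.38 for COMP, which went up by 2.29 in the Piedmontese cross and down in the Wagyu cross by −1.09. It was 1.43 for COL11A1 and 1.03 for COL2A1 over the same ages. COL11A1 differed by −1.02 from 3 to 7 months, by 3.13 from 12 to 20 months and by −3.52 from 20 to 25 months, and the last 2 share the 20-month columns, where the Wagyu level was 3.29 and the Piedmontese 5.80. COL2A1 differed by −1.46 from 20 to 25 months and COMP by 2.11 from 25 to 30 months. ACAN differed by −0.79 from 195 to 280 days, by −0.80 from 7 to 12 months and by 0.42 from 12 to 20 months.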

How the results depend on the processing

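The fetal and the postnatal minus fetal falls of COL2A1, COL11A1 and ACAN and the 4 passes over ages kept their direction and their call under every alternative run, and no call between the crosses appeared. COMP was the unstable gene. Its change from 60 to 280 days was −1.31 after quantile normalisation, −0.97 with columns centred on their median and −2.20 with a trended robust prior (adjusted p = 0.147, 0.233 and 0.051), and −3.13 to −1.27 with 1 column left out. Its postnatal minus fetal difference was 1.15 after quantile normalisation and 1.15 with centring, both called, and ran from −0.32 (without 195 days) to 1.28 (without 135 days). Its change from 3 to 30 months ran from 0.70 to 2.59 with 1 column left out. The ACAN change across birth became a call at −0.72 with centring, −0.79 with its rows averaged and −0.99 in its other row, so that 1 gene was called there. The COL2A1 change from 3 to 30 months was −2.10 and called after quantile normalisation, −1.30 but not called with the trended prior, leaving 0 genes called, and ran from −1.50 to −1.09 with 1 column left out, with 0 to 1 genes called. Among fetal ages alone, an alternative chosen after seeing the data, the cross difference of COL2A1 was −0.26 and that of COMP −0.50, opposite in sign to all ages and not called. Why these values moved was not tested. No analysis with a replicate block was possible because each cross has 1 column at an age; the cross comparison was paired by age. Signals near the 10th percentile of a column limit what the postnatal levels of COL2A1, COL11A1 and ACAN can show.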
